A study of Rattus norvegicus with 8 samples.

Results

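The somatic response to picrotoxin (PTX) was measured in 4 of the 8 RNA-seq libraries of the series, 2 from PTX-treated and 2 from vehicle-treated cultures. They were chosen by their labels, and the response is described across the genes of the count table. The cells were primary hippocampal neurons of Sprague-Dawley rat embryos, grown on filter inserts with 1 μm pores that let axons and dendrites through to the lower side and hold the cell bodies on the upper side. Somata PTX and somata control are the upper side of inserts that received 100 μM PTX or the vehicle, absolute ethanol, for 48 h from day 18 to day 20 in vitro. The other 4 libraries come from the lower side of inserts treated alike, with 2 for each treatment, and enter the fit to estimate the spread and to compare compartments. The upper side also keeps the processes that do not cross the filter, and the cultures were not sorted by cell type. The labels do not say whether the replicates were separate cultures, so the p-values measure the spread between these libraries.

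PTX blocks the chloride channel of GABA-A receptors. Without this inhibition networks of hippocampal neurons fire in bursts, and within minutes to hours calcium entry switches on immediate early genes such as Fos and Npas4, followed by secreted factors such as Bdnf. When high activity lasts, excitatory synapses weaken, a homeostatic response called synaptic downscaling in which AMPA receptors are removed from the postsynaptic membrane and Plk2 phosphorylates spine proteins.

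Ribosomal RNA was depleted before library preparation. The 4 somatic libraries held between 12290890 and 14520831 counts, and a median tested gene had between 268 and 319 reads in them. Genes of the mitochondrial genome took 26.7% and 24.3% of the counts in the vehicle libraries and 22.7% and 22.6% in the PTX libraries. RNA of neurons was present on the upper side, where all 12 neuron markers written for it were measured. Their summed level was 2614 and 2323 CPM in vehicle and 2276 and 2063 CPM in PTX libraries. CPM is the count scaled to a common total after TMM normalization, which sets library sizes so that most genes do not differ. The summed level of 12 astrocyte markers was higher, at 5033 and 5598 CPM in vehicle and 3916 and 5205 CPM in PTX libraries, so astrocyte RNA was abundant. None of the 11 microglia markers in the table passed the filter on low counts, and the highest of them had 27 reads in a library.

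PTX changed the somatic RNA of many genes by modest amounts and of a few by more than 10 times. Of 14309 genes tested, 1031 were raised (7.21%) and 971 were lowered (6.79%) at an adjusted p below 0.05 in edgeR's quasi-likelihood test, fitted with a block for the replicate number. The median log2 fold change was 0.57 among raised and -0.50 among lowered genes, against -0.01 over all genes tested. A log2 fold change above 1 was found for 192 raised genes, and 104 lowered genes were below -1. The largest rises included the genes Htra4, Pdyn and Acan, which encode secreted proteins, and the largest falls included genes for transcription factors and calcium handling.

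The number of calls depended on the block and on each somatic library. Without the replicate block 299 genes were raised and 214 lowered, and these 513 were all among the 2002. Leaving out a somatic library left 576 raised and 600 lowered without control replicate 1, 541 and 492 without control replicate 2, 506 and 343 without PTX replicate 1, and 509 and 545 without PTX replicate 2. Scaled by library size only, without TMM, 1166 genes were raised and 563 lowered, so that 67.4% of the calls were rises in place of 51.5%. Both pairs of libraries of 1 replicate number moved the same way for 1029 of the 1031 raised and for 971 of the 971 lowered genes, which a test with a block favours, and for 70.8% of all genes tested. The exceptions were AC095825.1, a pseudogene with 3 and 2 reads in vehicle and 2 and 52 reads in PTX libraries, and Cryab, which encodes a small heat shock protein. Both were named after their values were seen. Of 215 genes for which the leave-out fits were tabulated, 42, 42, 58 and 44 lost their call in these 4 fits in turn, and the losses of genes described with their values are given beside them.

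**Figure D1:**
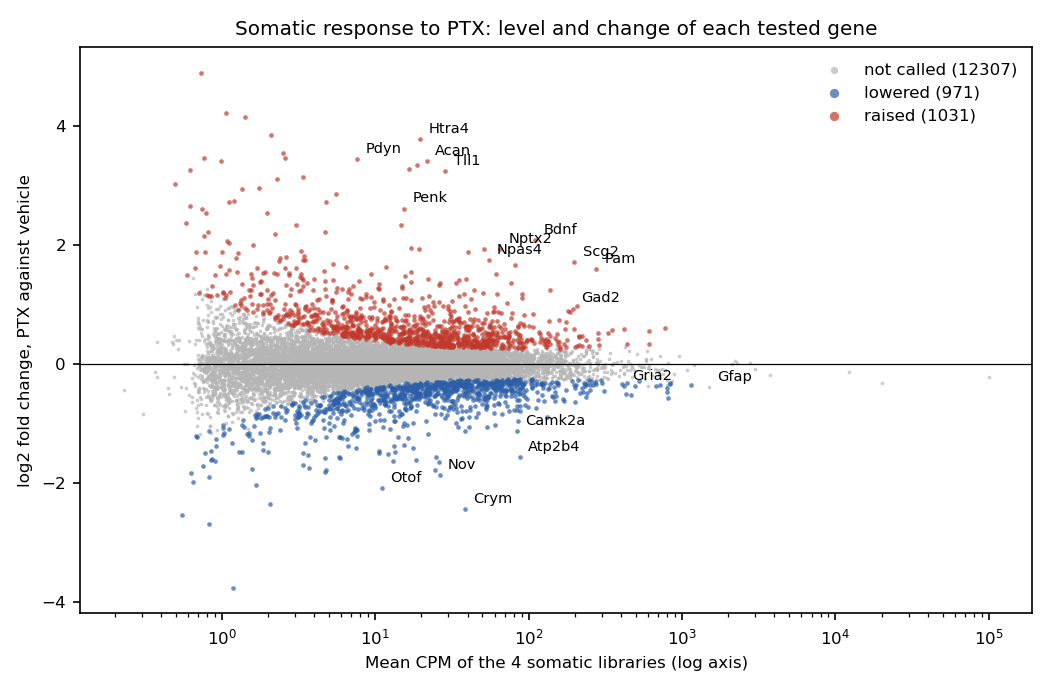
Mean level of each of the 14309 tested genes over the 4 somatic libraries (x, CPM, log axis) against its log2 fold change under PTX (y); red points were raised (1031), blue points lowered (971) and grey points not called. Rises reach further from 0 than falls, with Htra4, Pdyn, Acan and Tll1 above 3 and Crym at -2.44.

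**Figure D2:**
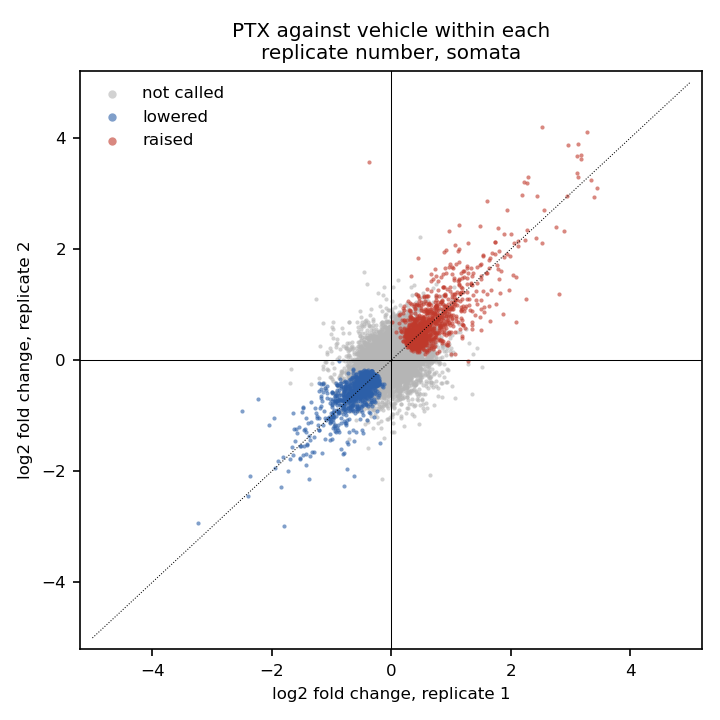
Log2 fold change of PTX against vehicle between the replicate 1 libraries (x) and between the replicate 2 libraries (y) for each tested gene, coloured by call, with a dotted line of equal change. Both values have the same sign for 2000 of the 2002 called genes, which a test with a block favours, and for 70.8% of all genes tested.

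The vehicle and PTX levels of a gene did not overlap for 1909 of the 2002 called genes, against 49% of all genes tested. Such separation is favoured by a test on the same libraries. More calls were made among genes with more reads. When genes were divided by level into 4 groups of equal size, they took 8.33% of the lowest and 22% of the highest group, so changes of weakly expressed genes could be missed at this depth. Of 13149 protein-coding genes tested, 981 rose and 931 fell. Of 251 long intergenic non-coding RNAs, 7 rose and 11 fell.

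Among genes with at least 5 CPM and no overlap between groups, the largest rise was that of Htra4, a secreted serine protease. It was measured at 2.68 and 2.59 CPM in the vehicle and at 27.1 and 46.4 CPM in the PTX libraries, and its log2 fold change was 3.78 (standard error 0.156, adjusted p = 2.98e-14). Both PTX libraries stood far above both vehicle libraries. Acan, which encodes aggrecan, the main proteoglycan of perineuronal nets, rose from 4.76 and 2.78 CPM to 42.1 and 36.7 CPM (log2 fold change 3.40, standard error 0.139). Tll1, a metalloprotease that cleaves procollagens and BMP antagonists, rose from 5.99 and 5.01 CPM to 53 and 50.6 CPM (log2 fold change 3.24, standard error 0.119). Serpinf1 encodes a secreted factor of the serpin family, and its level was 4.89 and 1.61 CPM in vehicle and 28.8 and 31.6 CPM in PTX libraries, a log2 fold change of 3.27. A long intergenic non-coding RNA, AABR07052897.3, rose from 3.66 and 3.09 CPM to 38.3 and 30.3 CPM. These 5 rises passed without the block and in each of the 4 fits that left out a somatic library.

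The other genes among the 15 largest rises were Pdyn, Mustn1, Penk, Crhbp, Bdnf, Nfil3, Vgf, AABR07051069.1, Nptx2 and Lgi2, with log2 fold changes between 3.44 and 1.88. Crhbp, the binding protein of corticotropin-releasing hormone, differed between replicates in both groups, with 7.23 and 2.59 CPM in vehicle and 35.4 and 13.5 CPM in PTX libraries. Within each replicate number its rise was of similar size, and its log2 fold change was 2.33 (standard error 0.132). Lgi2, a secreted protein of the synaptic LGI family, rose from 20.5 and 14 CPM to 71.6 and 54.6 CPM.

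The largest fall was that of Crym, which encodes crystallin mu, a cytosolic protein that binds thyroid hormone. Its level was 65.6 and 64.2 CPM in the vehicle and 12.4 and 11.7 CPM in the PTX libraries, and its log2 fold change was -2.44 (standard error 0.121, adjusted p = 1.09e-12), or 5.41 times lower. Otof, which encodes the calcium sensor otoferlin, was at 18.2 and 17.7 CPM in vehicle and at 4.96 and 3.56 CPM in PTX libraries (log2 fold change -2.09). Nov, a secreted protein of the CCN family, went from 46.3 and 36.2 CPM to 13.8 and 8.98 CPM (log2 fold change -1.87). For each of these genes the lower vehicle library was above the higher PTX library by more than 2 times.

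Transcription factors of excitatory forebrain neurons were among the largest falls. Bhlhe22 fell from 39.7 and 36.6 CPM to 11.3 and 10.9 CPM (log2 fold change -1.78, standard error 0.113). Neurod6 fell from 40.5 and 38.3 CPM to 14 and 11.2 CPM (log2 fold change -1.65, standard error 0.110). Both encode basic helix-loop-helix factors. Other falls among the 15 largest were Cabp7, Filip1, Adamts3, Atp2b4, Hpca, LOC103690141, LOC100911581, Islr2 and Gucy1a1, with log2 fold changes between -1.62 and -1.46. Each of the 29 genes named here as a large rise or fall passed without the replicate block, with an adjusted p of at most 0.032, and in each fit that left out a somatic library.

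**Figure D3:**
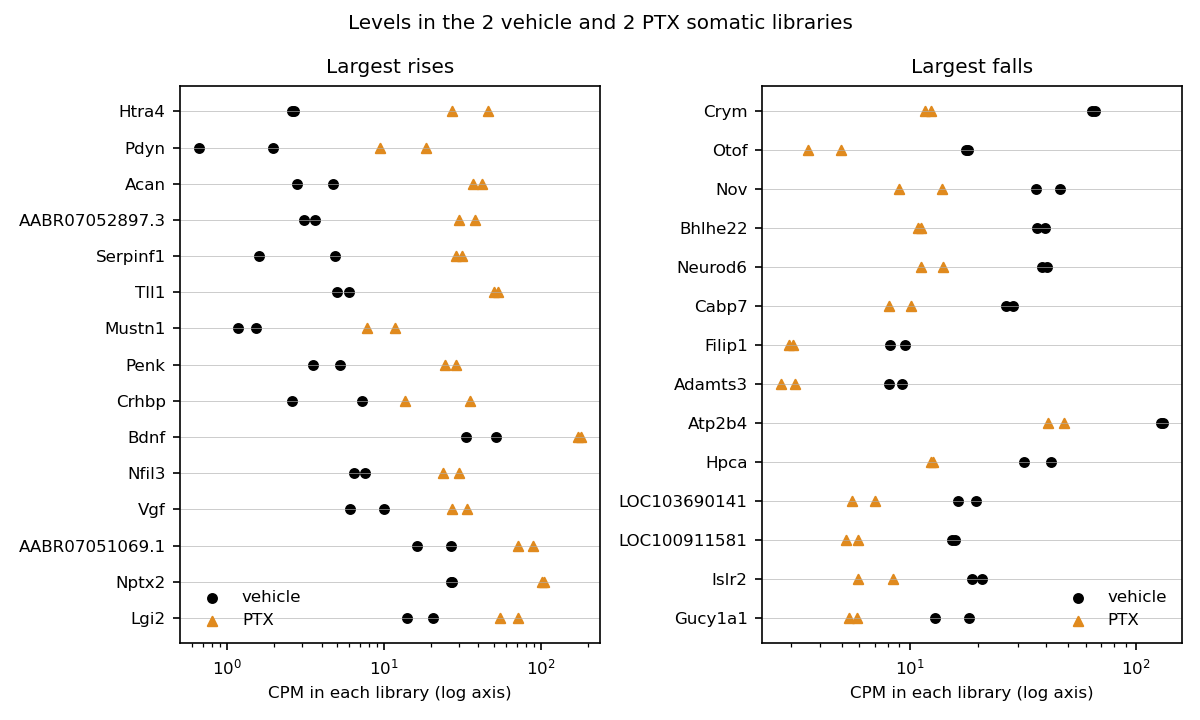
CPM (x, log axis) in each of the 2 vehicle (black circles) and 2 PTX (orange triangles) somatic libraries for 15 top rises (left) and 14 top falls (right) under the rule for named genes. Only genes without overlap between the groups could enter, so the separation seen in these 29 genes is part of the rule.

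Many genes known to follow neuronal activity were raised after 48 h of PTX. Of 35 transcription factors of this kind that were tested, 16 rose and none fell (1 at an unadjusted p below 0.05, none in DESeq2), with a median log2 fold change of 0.33 against -0.01 over all genes. Of 50 activity-regulated effector genes 34 rose and 3 fell (Ntf3, Rasl11a and Lmo4), with a median of 0.89. Without the replicate block 11 of the factors and 26 of the effectors rose and none fell, with 0 and 3 lower at an unadjusted p below 0.05. The other gene lists stand beside the same background of 7.21% raised and 6.79% lowered.

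Npas4, a factor induced by calcium entry in neurons, was at 23.6 and 26.9 CPM in vehicle and at 80.5 and 88 CPM in PTX libraries (log2 fold change 1.74, standard error 0.101). Fos, a subunit of the AP-1 factor, rose from 20.7 and 17.4 CPM to 55.7 and 45.9 CPM (log2 fold change 1.42, standard error 0.101). Nfil3, a repressor of the bZIP family, had the largest rise of the list, from 7.52 and 6.46 CPM to 30.2 and 24 CPM. In each of these the lower PTX library was more than 2 times above the higher vehicle library. Fosb (log2 fold change 1.75), Csrnp1 (1.68), Crem (1.38) and Nr4a1 (1.11) rose too. Egr1, the zinc finger factor most used as a mark of recent activity, was at 18.9 and 19.2 CPM in vehicle and 23.5 and 21.1 CPM in PTX libraries and did not pass (log2 fold change 0.23, standard error 0.106, adjusted p = 0.18).

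Among the effectors, Bdnf, the neurotrophin that strengthens synapses and acts on inhibitory contacts, rose from 52.1 and 33.3 CPM to 180 and 174 CPM (log2 fold change 2.07, standard error 0.111, adjusted p = 3.79e-12). Nptx2 encodes a secreted pentraxin that clusters AMPA receptors on interneurons. It rose from 27.2 and 26.9 CPM to 105 and 101 CPM, and its log2 fold change of 1.93 stayed between 1.91 and 1.94 with any somatic library left out. Plk2, the kinase needed for downscaling, rose from 45.8 and 32.7 CPM to 143 and 104 CPM (log2 fold change 1.66, standard error 0.086). The PTX libraries lay above the vehicle libraries in all 3 genes.

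Arc and Homer1, often used as marks of synaptic activity, had smaller log2 fold changes. Arc, which promotes the internalisation of AMPA receptors, was at 17.6 and 19.8 CPM in vehicle and 22.3 and 28.3 CPM in PTX libraries (log2 fold change 0.43, adjusted p = 0.0212). Its call was lost without the block (adjusted p = 0.257), without control replicate 1 (0.0703) or 2 (0.157) and without PTX replicate 2 (0.276). Homer1, a postsynaptic adaptor, rose with a log2 fold change of 0.51, from 37.8 and 33.4 CPM to 48.9 and 52.4 CPM, and lost its call without PTX replicate 2 (adjusted p = 0.085). The counts were summed by gene symbol, so the short and long forms of Homer1 cannot be told apart. Low counts stood behind the effector with the largest fold change, Serpinb2, an inhibitor of plasminogen activators. It had 9 and 4 reads in vehicle and 123 and 81 reads in PTX libraries (log2 fold change 3.85, standard error 0.346). Neither vehicle library exceeded the 20 reads of the filter on low counts, so its entry was favoured by its rise.

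Some feedback inhibitors of the MAP kinase pathway also rose. This pathway carries growth factor and calcium signals to the nucleus, and its own targets include phosphatases and Sprouty proteins that shut it off. Of 19 tested 8 rose and none fell, also not at an unadjusted p below 0.05 or in DESeq2, and 5 rose without the block. Dusp1 rose from 9.99 and 6.7 CPM to 26 and 20.2 CPM (log2 fold change 1.48), Dusp4 from 47.5 and 38.4 CPM to 120 and 101 CPM (1.36) and Spry4 from 28.8 and 23.9 CPM to 63.5 and 60.8 CPM (1.24). RGS proteins and small G protein regulators, which end or redirect receptor signals, gave 9 rises and 4 falls among 37. Without the block 7 rose and none fell, with 4 lower at an unadjusted p below 0.05, and DESeq2 called 8 rises and no fall. The rises included Rgs4 from 91.6 and 72.7 CPM to 190 and 197 CPM and Rgs2 from 14.5 and 13.8 CPM to 30.2 and 31.9 CPM.

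The promoters of several of these genes carry the cyclic AMP response element, TGACGTCA, the palindromic site bound by CREB and CREM, whose activity calcium signals control. RefSeq start sites of the GRCr8 assembly, which is later than the assembly the authors mapped to, were searched from 250 bases before to 50 bases after the start. The element was present on either strand in 612 of 33469 windows (1.83%). Among tested genes with a window, 329 of 9922 (3.32%) held it in at least 1 window. A window was matched by symbol for 136 of the 192 genes raised with a log2 fold change above 1, and 10 of them held the element in at least 1 window. These were Vgf, Ltbp1, Scg2, Plk2, Dusp1, Crem, Cartpt, Maff, Kif18a and Actr3b. The same windows were searched for the AP-1 site (TGANTCA), the Egr site (GCGTGGGCG) and the CArG box bound by SRF. The AP-1 site was found in 15 of the 136 genes, more than held the cyclic AMP response element, and in 487 of the 9922 tested. The Egr site was found in 2 of the 136 and 119 of the 9922, and the CArG box in 1 and 137. Because 70.8% of the raised genes had a window, below the 80% set as the minimum, the shares of called and other genes were not compared. A match describes the letters in these windows and says nothing of binding.

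Shown are 5 windows, each of 300 bases, from genes with large rises in the groups described here, 5′ to 3′ in the direction of the gene with the element in capitals. Vgf lies at chr12:25276971-25277270 (minus strand), Scg2 at chr9:88256817-88257116 (minus), Plk2 at chr2:43702286-43702585 (plus), Dusp1 at chr10:17184603-17184902 (plus) and the Crem window at chr17:58985240-58985539 (plus). The element begins 90 bases before the start site in Vgf, 123 in Scg2, 66 in Plk2 and 124 in Dusp1. The Crem window, 1 of 3 for this gene, holds 2 copies.
Vgf: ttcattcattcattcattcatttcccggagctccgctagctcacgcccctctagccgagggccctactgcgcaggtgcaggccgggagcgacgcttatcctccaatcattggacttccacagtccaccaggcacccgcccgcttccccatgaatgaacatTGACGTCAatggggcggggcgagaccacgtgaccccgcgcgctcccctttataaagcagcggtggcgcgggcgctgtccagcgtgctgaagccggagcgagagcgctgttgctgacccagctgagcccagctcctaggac
Scg2: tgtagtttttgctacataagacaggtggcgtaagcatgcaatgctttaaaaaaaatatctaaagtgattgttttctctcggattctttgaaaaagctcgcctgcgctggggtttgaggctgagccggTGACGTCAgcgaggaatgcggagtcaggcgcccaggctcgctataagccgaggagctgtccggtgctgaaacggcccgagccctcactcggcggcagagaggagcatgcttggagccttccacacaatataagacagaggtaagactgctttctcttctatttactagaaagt
Plk2: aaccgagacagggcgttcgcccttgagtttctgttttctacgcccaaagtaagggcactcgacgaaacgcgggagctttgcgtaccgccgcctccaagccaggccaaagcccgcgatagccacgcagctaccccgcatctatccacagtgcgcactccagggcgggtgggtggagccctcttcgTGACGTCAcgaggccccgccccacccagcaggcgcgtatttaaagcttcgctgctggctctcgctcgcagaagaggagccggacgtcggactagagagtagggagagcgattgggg
Dusp1: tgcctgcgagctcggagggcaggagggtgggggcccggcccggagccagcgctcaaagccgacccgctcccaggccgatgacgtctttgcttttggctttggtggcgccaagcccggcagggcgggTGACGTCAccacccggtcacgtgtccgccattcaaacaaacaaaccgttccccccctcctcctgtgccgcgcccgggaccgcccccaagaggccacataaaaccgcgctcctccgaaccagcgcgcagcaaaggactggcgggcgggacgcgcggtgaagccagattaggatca
Crem: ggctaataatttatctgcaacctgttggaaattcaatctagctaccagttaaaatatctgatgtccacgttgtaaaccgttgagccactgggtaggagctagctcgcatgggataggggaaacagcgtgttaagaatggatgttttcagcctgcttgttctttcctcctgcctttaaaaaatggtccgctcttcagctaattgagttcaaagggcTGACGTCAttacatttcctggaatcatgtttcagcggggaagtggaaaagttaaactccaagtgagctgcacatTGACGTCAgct

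Most neuropeptide precursor genes tested rose. Neuropeptides are packed in dense core vesicles and released by high-frequency firing. Of 20 precursors tested 12 rose and 1 fell (Agt), with a median log2 fold change of 1.21, and 7 rose and 1 fell without the block. Pdyn, the precursor of the dynorphin opioids, rose from 1.96 and 0.666 CPM to 18.5 and 9.48 CPM (log2 fold change 3.44, standard error 0.192). Penk, the precursor of the enkephalins, rose from 5.27 and 3.53 CPM to 24.5 and 28.6 CPM (log2 fold change 2.60, standard error 0.160). Tac1, the precursor of substance P, rose from 1.7 and 0.823 CPM to 10.6 and 5.97 CPM (log2 fold change 2.71, standard error 0.231). In Pdyn and Tac1, replicate 2 was lower than replicate 1 in both groups, and the groups did not overlap. Pnoc, the nociceptin precursor, rose from 1.19 and 0.823 CPM to 6.04 and 4.11 CPM.

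Some genes for proteins that fill and process dense core vesicles also rose. Of 16 granins and processing enzymes 6 rose and none fell (0 at an unadjusted p below 0.05, 0 in DESeq2), and 4 rose without the block. Scg2, the secretogranin 2 gene, rose from 104 and 82.3 CPM to 322 and 286 CPM (log2 fold change 1.71, standard error 0.102). Pam, the enzyme that amidates peptides at their end, rose from 156 and 120 CPM to 435 and 394 CPM (log2 fold change 1.60, standard error 0.095) and was among the most strongly expressed genes with a rise above 1. Vgf rose from 10.1 and 6.11 CPM to 34 and 27 CPM, and Ptprn, a membrane protein of these vesicles, from 129 and 125 CPM to 242 and 230 CPM (log2 fold change 0.89).

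Some genes of each class of glutamate receptor fell. AMPA receptors carry most fast excitation, and among their 22 subunit and auxiliary genes 12 fell and 2 rose (Cacng3 and Cacng5), with a median log2 fold change of -0.38. Without the block 2 of them fell. Of 7 NMDA receptor subunits Grin3a and Grin2b fell. Of 9 kainate and delta receptor subunit and auxiliary genes the subunits Grik4 and Grik2 and the auxiliary Neto1 fell. Of 8 metabotropic receptors 3 fell, among them Grm5 and Grm3, and none of these 24 genes rose. At an unadjusted p below 0.05, 1 metabotropic receptor was higher, and DESeq2 called no rise. Without the block 1 NMDA subunit, 2 kainate receptor subunit or auxiliary genes and 2 metabotropic receptors fell. Leaving out PTX replicate 1 ended the calls of Grin3a (adjusted p = 0.0743), Grik2 (0.0661) and Grm3 (0.124), leaving out control replicate 1 also that of Grm3 (0.0871), and leaving out control replicate 2 that of Grik4 (0.112).

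Gria1, an AMPA subunit placed at synapses by potentiation, fell from 178 and 158 CPM to 122 and 111 CPM (log2 fold change -0.53, standard error 0.091, adjusted p = 0.00019). Gria2, the subunit that makes the channel impermeable to calcium, was at 490 and 459 CPM in vehicle and 364 and 369 CPM in PTX libraries (log2 fold change -0.37), and Gria3 at 36.7 and 29.9 CPM and 24.4 and 25.3 CPM (-0.42). In these 3 genes both PTX libraries were below both vehicle libraries. Gria4 showed no such fall, with 54.5 and 48.3 CPM in vehicle and 49.2 and 51.2 CPM in PTX libraries (log2 fold change -0.03, standard error 0.099). The call of Gria1 passed in each fit without a somatic library. That of Gria2 was lost without control replicate 1 (adjusted p = 0.16) and without PTX replicate 1 (0.0934) or 2 (0.0861), and that of Gria3 without control replicate 1 (0.186) and PTX replicate 1 (0.433). Among auxiliary proteins, Shisa6, which keeps AMPA receptors at the postsynaptic density, fell from 8.97 and 8.07 CPM to 3.13 and 4.15 CPM (log2 fold change -1.23). Prrt2, a protein that binds AMPA receptors and the release machinery, fell from 19.5 and 15.9 CPM to 11.5 and 7.03 CPM (-0.96). Without the block Gria2, Gria3 and Prrt2 did not pass (adjusted p = 0.111, 0.139 and 0.136), and the rise of Cacng5 was lost there (0.281) and without control replicate 1 (0.129), control replicate 2 (0.0594) or PTX replicate 2 (0.311).

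Grm5, the metabotropic receptor mGluR5, fell from 122 and 124 CPM to 69.9 and 80.9 CPM (log2 fold change -0.72, standard error 0.100). Grin2b, the NMDA receptor subunit that predominates early in development and binds CaMKII, fell from 146 and 138 CPM to 113 and 101 CPM (log2 fold change -0.41, standard error 0.086, adjusted p = 0.00175). It lost its call without the block (adjusted p = 0.098). Grin1, the subunit all NMDA receptors contain, was at 108 and 89.6 CPM in vehicle and 112 and 102 CPM in PTX libraries, and Grin2a at 28.7 and 27.5 CPM and 24 and 28 CPM. Neither passed, with log2 fold changes of 0.12 (standard error 0.088) and -0.11 (standard error 0.132).

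Genes of the postsynaptic scaffold and its kinases were also among the falls. Of 37 genes 14 fell and 4 rose (Sipa1l2, Homer1, Dlgap2 and Dlgap3), with a median of -0.28, and 5 fell and 1 rose without the block. Camk2a, the alpha subunit of the calcium and calmodulin dependent kinase of excitatory synapses, fell from 118 and 112 CPM to 50.2 and 55.3 CPM (log2 fold change -1.12, standard error 0.117). Camk2n1, an inhibitor of that kinase, fell from 17.3 and 16.8 CPM to 9.78 and 8.98 CPM (log2 fold change -0.87). Akap5, which anchors kinases and calcineurin at the postsynapse, fell from 19.6 and 18.4 CPM to 10.1 and 11.2 CPM (log2 fold change -0.84). Dlg4, the gene of PSD-95, did not pass, with 134 and 132 CPM in vehicle and 139 and 145 CPM in PTX libraries (log2 fold change 0.09, standard error 0.112).

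Shank2, a scaffold that links receptors to actin, was at 38.6 and 39.6 CPM in vehicle and 27.8 and 29.3 CPM in PTX libraries (log2 fold change -0.46, adjusted p = 0.00327). Srcin1, a regulator of Src kinase in spines, was at 24.8 and 25.3 CPM and 17.9 and 17.8 CPM (log2 fold change -0.49, adjusted p = 0.00756). Add2, which caps actin and binds spectrin, was at 60.2 and 57.1 CPM and 51.5 and 43.6 CPM (log2 fold change -0.31, adjusted p = 0.0195). In these 3 genes the groups did not overlap, but none passed without the block, where the adjusted p was 0.0772, 0.148 and 0.291. Their calls were also lost in fits that left out a library. For Shank2 this was without control replicate 2 (adjusted p = 0.0524) or PTX replicate 1 (0.124), and for Srcin1 without control replicate 2 (0.128) or PTX replicate 1 (0.128). For Add2 it was without control replicate 2 (0.252), PTX replicate 1 (0.143) or PTX replicate 2 (0.231). Slc2a13, the proton-coupled myo-inositol transporter, behaved likewise with a log2 fold change of -0.41, an adjusted p of 0.0075 and 0.0813 without the block, and lost its call without control replicate 1 (0.226), PTX replicate 1 (0.156) or PTX replicate 2 (0.0801).

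Genes that keep calcium low were among those that fell. Of 38 pumps, exchangers, buffers and sensors 14 fell and 4 rose (Rcan1, Vsnl1, Cabp1 and Rcan2), with a median of -0.22, and 10 fell and 2 rose without the block. Atp2b4, a plasma membrane calcium pump, fell from 130 and 132 CPM to 47.9 and 40.7 CPM (log2 fold change -1.56, standard error 0.093, adjusted p = 2.04e-11). Atp2b3, another pump of this family, fell from 54.7 and 51.3 CPM to 23.6 and 25 CPM (log2 fold change -1.13), and the sodium-calcium exchanger Slc8a2 from 69.9 and 75.7 CPM to 33.8 and 36.3 CPM (-1.05). In these 3 genes each PTX library was below each vehicle library. The calcium sensors Hpca, hippocalcin, and Cabp7 fell from 32 and 42.1 CPM to 12.5 and 12.7 CPM and from 28.6 and 26.6 CPM to 10.2 and 8.09 CPM. Rcan2, an inhibitor of calcineurin, went the other way, from 26.6 and 16.4 CPM to 65.2 and 48.9 CPM (log2 fold change 1.43).

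Among voltage-gated sodium and calcium channel genes there were more falls than rises. Of 15 calcium channel genes 7 fell and Cacnb4 rose, and 4 fell without the block. Cacna1g and Cacna1h, T-type channels that open near rest, fell from 29 and 33.3 CPM to 18.7 and 18.9 CPM and from 24.9 and 25.3 CPM to 16.6 and 17.5 CPM. Cacna1c, the L-type channel that couples activity to transcription, fell from 66.8 and 62.9 CPM to 44.3 and 41.2 CPM (log2 fold change -0.60, standard error 0.088). Of 12 sodium channel genes 5 fell and 1 rose, and 2 fell without the block. Scn3b, a beta subunit, fell from 90.6 and 81.8 CPM to 50 and 46.5 CPM (log2 fold change -0.84), and Scn8a, the channel of the axon initial segment, from 105 and 98.2 CPM to 73.6 and 71.9 CPM (-0.48). The call of Scn8a was lost without the block (adjusted p = 0.051).

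Potassium channels, which set the resting potential and end action potentials, moved both ways. Of 72 genes 12 rose and 13 fell, with a median of -0.0045, and 5 rose and 6 fell without the block. Kcnk9, a leak channel of the TASK type, fell from 14.6 and 15.6 CPM to 6.98 and 7.54 CPM (log2 fold change -1.06), and the modifier subunit Kcng2 from 9.22 and 9.32 CPM to 3.92 and 3.85 CPM (-1.26). Kcna1, a low-threshold channel of axons that limits repetitive firing, rose from 14.9 and 17.6 CPM to 30.1 and 33.5 CPM (log2 fold change 0.97, standard error 0.120).

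The genes of inhibition did not move as one. Of 13 GABA-A receptor subunits, the channel that PTX blocks, 4 fell, among them Gabra5, Gabrg3 and Gabrg1, and 2 rose, among them Gabrb2, and without the block the fall of 1 subunit passed. Gabrg3 was lost without control replicate 1 (adjusted p = 0.108) or PTX replicate 1 (0.139), and Gabrb2 without control replicate 2 (0.158), PTX replicate 1 (0.118) or PTX replicate 2 (0.0717). Gabra5, the subunit of extrasynaptic receptors in hippocampal pyramidal cells, fell from 110 and 103 CPM to 63.1 and 61.2 CPM (log2 fold change -0.77, standard error 0.093, adjusted p = 2.31e-06).

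Both genes for the enzymes that make GABA rose. Gad2 went from 155 and 113 CPM to 287 and 221 CPM (log2 fold change 0.93, standard error 0.088) and Gad1 from 90.4 and 64.8 CPM to 152 and 122 CPM (0.83, standard error 0.089), and both passed without the block. Slc32a1, which loads GABA into vesicles in the same neurons, was at 32 and 25.4 CPM in vehicle and 31.9 and 24.4 CPM in PTX libraries, a log2 fold change of -0.03 (standard error 0.095). Slc6a11, a GABA transporter of astrocytes, fell from 38.9 and 47.6 CPM to 22.4 and 27.2 CPM (log2 fold change -0.80). Slc12a5, the neuronal chloride extruder KCC2, fell from 42.6 and 38.6 CPM to 25.8 and 25.4 CPM (log2 fold change -0.66), with an adjusted p of 0.0549 without the block. Over the 17 genes for GABA synthesis, transport and the inhibitory postsynapse, 4 rose and 6 fell, and 3 rose and 2 fell without the block.

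Markers of cell types moved with these groups. In bulk RNA, fewer cells of a type and less RNA per cell cannot be told apart. Of 9 interneuron markers tested 5 rose (Gad1, Gad2, Npy, Vip and Sst) and none fell (1 at an unadjusted p below 0.05, none in DESeq2). Without the block 2 of them rose. The 4 not called were Slc32a1, Dlx1, Lhx6 and Reln, and Dlx1 had 221 and 174 reads in vehicle and 191 and 125 in PTX libraries. Dlx2, Dlx5 and Pvalb did not pass the filter on low counts. Pvalb had 18 and 8 reads in vehicle and 4 and 7 in PTX libraries, and Dlx5 23 and 18 against 15 and 9. The summed level of the 9 markers was 455 and 321 CPM in vehicle and 667 and 508 CPM in PTX libraries. Of 12 neuron markers 5 fell (Rbfox3, Tubb3, Stmn2, Slc17a7 and Syt1) and Slc17a6 rose, and 1 fell and none rose without the block, where 1 was higher at an unadjusted p below 0.05. Rbfox3 was lost without PTX replicate 1 (adjusted p = 0.0823), Tubb3 without control replicate 2 (0.25) or PTX replicate 2 (0.114), and Stmn2 without control replicate 2 (0.115), PTX replicate 1 (0.0522) or PTX replicate 2 (0.177). Vip and Sst kept their calls without control replicate 1 but lost them without control replicate 2 (adjusted p = 0.717 and 0.357), PTX replicate 1 (0.0524 and 0.296) and PTX replicate 2 (0.627 and 0.182). Of 12 astrocyte markers 3 fell (Gja1, Aqp4 and Atp1b2) and none rose (0 at an unadjusted p below 0.05, 0 in DESeq2), and of these 3 Gja1 passed without the block. Aqp4 was lost without PTX replicate 1 (adjusted p = 0.0779), and Atp1b2 without control replicate 1 (0.104) or PTX replicate 1 (0.334). Gja1, which forms astrocyte gap junctions, fell from 206 and 207 CPM to 120 and 151 CPM (log2 fold change -0.61), and Gfap was at 1588 and 1781 CPM in vehicle and 1057 and 1531 CPM in PTX libraries (adjusted p = 0.0516). Of 13 dentate granule and pyramidal cell markers 4 rose and 2 fell, and 1 fell without the block, where 4 were higher at an unadjusted p below 0.05, and their summed level was 204 and 172 CPM in vehicle and 181 and 151 CPM in PTX libraries.

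Oligodendrocyte, vascular and mitotic genes were also measured. The 11 oligodendrocyte lineage markers summed to 356 and 551 CPM in vehicle and 315 and 488 CPM in PTX libraries, and 2 of them fell, among them Cnp. The 7 endothelial, pericyte and fibroblast markers summed to 123 and 49.6 CPM and to 140 and 75.3 CPM, with rises of Kdr, Lum, Dcn and Col3a1, of which 1 passed without the block. Lum was lost without PTX replicate 1 (adjusted p = 0.0643), Dcn without control replicate 1 (0.155) or PTX replicate 1 (0.17), and Col3a1 without control replicate 2 (0.483) or PTX replicate 2 (0.399). The endothelial marker Cldn5 had 0 reads in each somatic library. Of 20 mitotic genes 11 rose and none fell (0 at an unadjusted p below 0.05, 0 in DESeq2), 2 of them without the block, and their summed level was 210 and 239 CPM in vehicle and 260 and 360 CPM in PTX libraries. Tpx2, a spindle protein, rose from 8.25 and 9.13 CPM to 12.4 and 16.6 CPM (log2 fold change 0.73), while Cdc20, an activator of the anaphase-promoting complex that also acts in dendrites, was at 4.17 and 5.76 CPM and 5.21 and 7.79 CPM and did not pass (log2 fold change 0.38, adjusted p = 0.128). The part of the cell types in the other results was not tested.

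**Figure D4:**
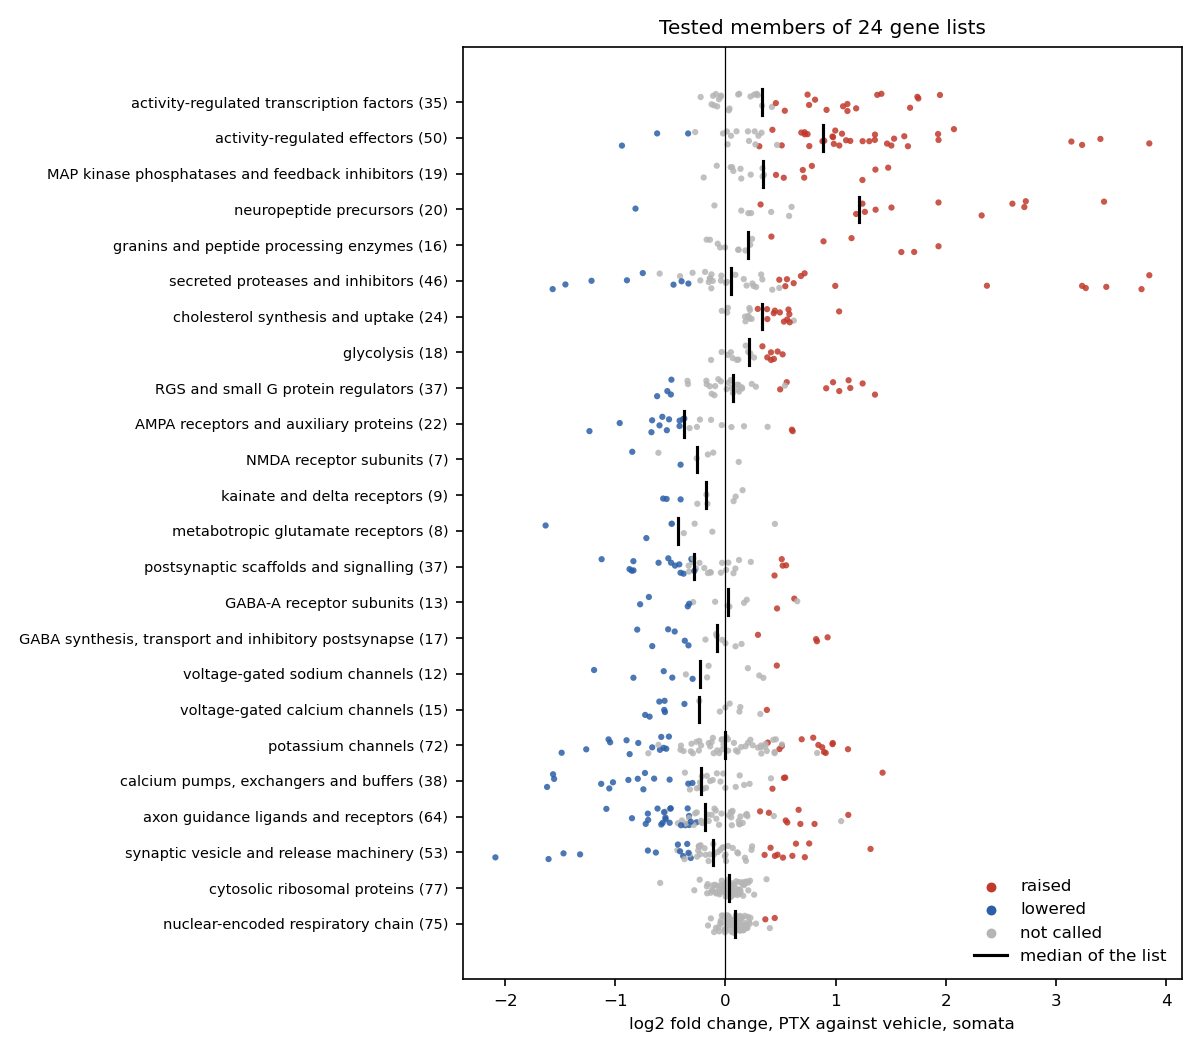
Log2 fold change of PTX against vehicle in somata (x) for each tested member (point; red raised, blue lowered, grey not called) of 24 of the 40 gene lists, with the number of tested members in parentheses and the median as a black bar. Neuropeptide precursors and activity-regulated effectors have the medians furthest above 0, at 1.21 and 0.89, and metabotropic and AMPA receptor lists lie at -0.43 and -0.38.

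Some cholesterol genes rose. Cholesterol is made in a chain of reactions under the control of the SREBP factors. Of 24 genes for its synthesis and uptake 12 rose and none fell (0 at an unadjusted p below 0.05, 0 in DESeq2), with a median of 0.34, and 5 rose without the block. Mvd, an enzyme of the mevalonate part, rose from 18.4 and 15.5 CPM to 37.8 and 31.7 CPM (log2 fold change 1.03, standard error 0.100), and Cyp51, which demethylates lanosterol, from 143 and 135 CPM to 214 and 200 CPM (0.58, standard error 0.094). 

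The rises of glycolysis genes, and most rises of chaperone genes, depended on the block. Of 18 glycolytic genes 7 rose and none fell (0 at an unadjusted p below 0.05, 0 in DESeq2), with log2 fold changes of at most 0.52, and none passed without the block, where 7 had an unadjusted p below 0.05. DESeq2 with the block called 7 rises. Ldha, lactate dehydrogenase A, was at 289 and 256 CPM in vehicle and 402 and 378 CPM in PTX libraries, with an adjusted p of 0.000473 and of 0.122 without the block, and its call was lost without PTX replicate 2 (0.0578). Of 66 folding and heat shock genes 9 rose and 2 fell, and 1 of each passed without the block. Hspa5, the chaperone BiP of the endoplasmic reticulum, rose from 159 and 157 CPM to 239 and 237 CPM (log2 fold change 0.59, standard error 0.088). Its rise passed without the block too (adjusted p = 0.011).

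The medians of the housekeeping lists stayed close to 0. Over all 8 libraries none of 77 cytosolic ribosomal protein genes was called by the quasi-likelihood test with or without the block, or by DESeq2. Their median was 0.03. Fitted on the 4 somatic libraries alone with the block, 4 of them rose and none fell, where 1925 of the 14309 genes tested rose. Over all libraries with the block 1 of the 77 had an unadjusted p below 0.05. Of 75 nuclear-encoded respiratory chain genes Atp5mc1 and Ndufb7 rose and none fell (0 at an unadjusted p below 0.05, 0 in DESeq2), with a median of 0.09. The log2 fold change was positive for 61 of the 75, and 13 rose in the fit of the somatic libraries alone with the block. Neither Atp5mc1 nor Ndufb7 passed without the block over all libraries. Atp5mc1 was lost without control replicate 1 (adjusted p = 0.07) or PTX replicate 1 (0.0794), and Ndufb7 in each fit that left out a somatic library.

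Release machinery, guidance and matrix genes changed in both directions. Of 53 synaptic vesicle and release genes 10 rose and 12 fell, among them the fall of Otof and a rise of the vesicular glutamate transporter gene Slc17a6 beside falls of Slc17a7 and Slc17a8. Without the block 2 rose and 4 fell, and none of these 3 transporter genes passed (adjusted p = 0.307, 0.249 and 0.138). The log2 fold change of Slc17a6 was 0.47, and 0.15 without PTX replicate 1 (adjusted p = 0.837), and its call was also lost without control replicate 1 (0.606). That of Slc17a8 was lost without control replicate 1 (0.138), PTX replicate 1 (0.0765) or PTX replicate 2 (0.105). Snap25, the SNARE of the presynaptic membrane, was at 214 and 191 CPM in vehicle and 206 and 191 CPM in PTX libraries. Of 64 axon guidance genes 21 fell and 8 rose, with a median of -0.19, and 5 fell and 4 rose without the block. Sema3a, a repellent that is bound by perineuronal nets, rose from 5.87 and 4.15 CPM to 11.6 and 9.95 CPM (log2 fold change 1.11), and Sema3e, a related ligand, fell from 35.1 and 32.8 CPM to 20.9 and 20.2 CPM (-0.72), with an adjusted p of 0.0509 without the block.

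Of 27 proteoglycan and perineuronal net genes 5 rose and 4 fell (Tnr, Hapln1, Vcan and Sparcl1). Tnr, the tenascin that links aggrecan molecules, fell from 92.1 and 127 CPM to 55.1 and 79.3 CPM (log2 fold change -0.71, standard error 0.123), with an adjusted p of 0.0854 without the block. Without the block the rise of 1 gene of the list passed. Secreted proteases and inhibitors gave 13 rises and 8 falls among 46, and 6 rises and 3 falls without the block. Besides Htra4, Tll1 and Serpinf1 they included Mmp9, a gelatinase that cleaves nets, with 4 and 2 reads in vehicle and 40 and 33 reads in PTX libraries. Among the somatic libraries only those with PTX exceeded the filter's 20 reads for Mmp9, so its entry was favoured by its rise. Adamts3, a procollagen protease, fell from 9.22 and 8.11 CPM to 3.13 and 2.71 CPM.

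Further lists held both rises and falls. Of 223 solute carriers 24 rose and 22 fell, of 60 cadherins and protocadherins 5 and 4, and of 37 genes of the TGF-beta and BMP family 6 and 5. Of 32 collagens 3 rose and 1 fell, of 12 CCN and insulin-like growth factor binding proteins 2 and 2, and of 10 neurotrophins and receptors 4 and 2. Without the block 9 solute carriers rose and 4 fell, and for cadherins the counts were 2 and 3. They were 2 and 1 for the TGF-beta and BMP family, 0 and 0 for collagens, 0 and 1 for the binding proteins, and 2 and 0 for neurotrophins. The shares of cadherins called with the block, 8.33% and 6.67%, were near those of all genes tested. Inhba, which encodes the activin A subunit, had the largest rise in these lists, from 0.85 and 0.509 CPM to 7.33 and 4.74 CPM (log2 fold change 3.14, standard error 0.253). It had 20 and 13 reads in vehicle libraries, neither above the 20 of the filter. Pcdh19, a cadherin of synapses, fell from 22.3 and 22.2 CPM to 8.13 and 9.31 CPM (log2 fold change -1.36).

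Most genes called in somata had a change of the same sign on the lower side of the filter. These process libraries are separate but were fitted together with the somatic ones, with a shared block and spread. The labels do not say whether both sides of an insert were used. Of the 1031 genes raised in somata, 960 had a positive log2 fold change in processes and 427 were raised there (41.4%, against 5.1% of all genes tested). Of the 971 lowered in somata, 905 had a negative change and 452 were lowered there (46.5%, against 6.09%). The share of all genes tested with the same sign in both compartments was not counted. The 3 genes lowered in somata and raised in processes were Sort1, Slc17a7 and Atp2b2. The somatic fall of Atp2b2 (adjusted p = 0.0259) was lost without the block (0.206) and in each fit that left out a somatic library, with adjusted p from 0.0534 to 0.479.

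The PTX effect itself differed between compartments for 15 genes (0.105% of those tested) by the interaction test. Sort1, the receptor sortilin, which sorts neurotrophins and their receptors, had the smallest p. In somata it was at 177 and 163 CPM in vehicle and 140 and 132 CPM in PTX libraries (log2 fold change -0.32, standard error 0.087, adjusted p = 0.0134), and in processes at 152 and 143 CPM and 295 and 267 CPM. The PTX effect in processes was higher than in somata by 1.25 on the log2 scale (standard error 0.126, adjusted p = 1.24e-05). The somatic fall alone was lost without the block (adjusted p = 0.166) and in each fit that left out a somatic library, with adjusted p from 0.0673 to 0.224.

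Slc17a7, the vesicular glutamate transporter VGLUT1, went from 263 and 256 CPM to 214 and 198 CPM in somata and from 171 and 130 CPM to 261 and 240 CPM in processes, and the effects differed by 1.08 on the log2 scale. Its somatic fall (adjusted p = 0.0182) was lost without control replicate 2 (0.231), PTX replicate 1 (0.223) or PTX replicate 2 (0.0957). The amino acid transporter gene Slc7a8 was among the genes with a larger effect in somata, where it rose from 26.7 and 19.7 CPM to 59.4 and 44.8 CPM, while it was at 21 and 15 CPM in vehicle and 24.7 and 19.7 CPM in PTX libraries of processes. Slc7a14, a lysosomal member of the same family, rose in somata from 13.3 and 12.8 CPM to 23.9 and 22.1 CPM and was at 10.4 and 8.1 CPM and 7.12 and 8.24 CPM in processes. Dnajc6, the auxilin that uncoats clathrin vesicles, was at 120 and 109 CPM in vehicle and 114 and 95.1 CPM in PTX libraries in somata and did not pass there. It went from 224 and 195 CPM to 128 and 107 CPM in processes. Without the replicate block no gene passed the interaction test in edgeR, with 572 genes at an unadjusted p below 0.05, and 19 passed in DESeq2 with the block.

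**Figure D5:**
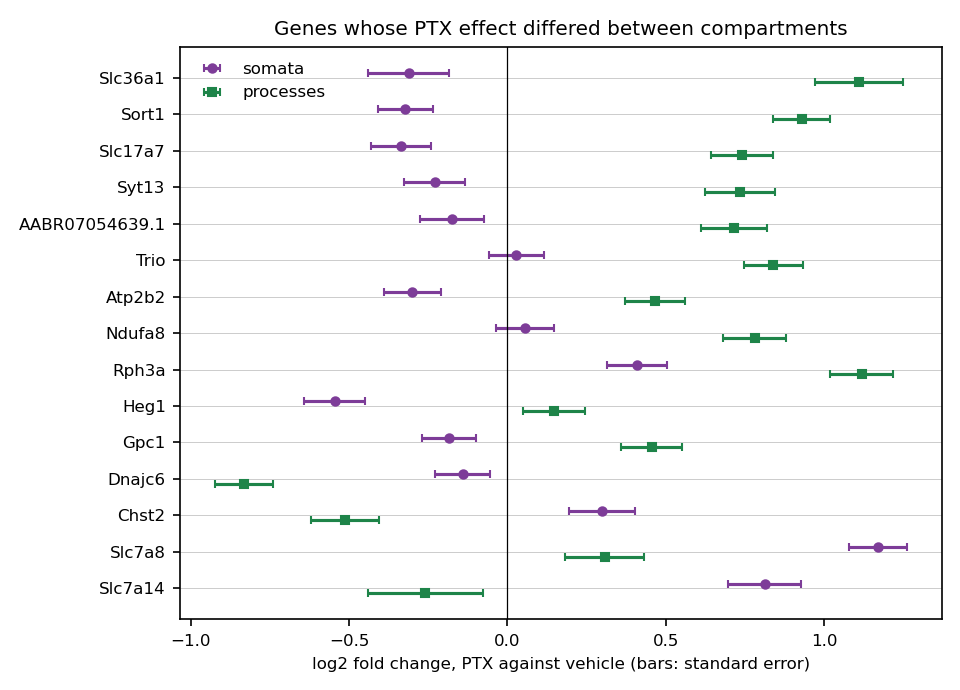
Log2 fold change of PTX against vehicle (x; bars are the standard error) in somata (purple circles) and processes (green squares) for the 15 genes that passed the interaction test, ordered by the difference. Slc36a1 and Sort1, at the top, have positive values in processes (1.11 and 0.93) and negative values in somata (-0.31 and -0.32), and Slc7a8 and Slc7a14, at the bottom, have the higher value in somata (1.17 and 0.81).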

How the data were processed

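Ribosome-depleted RNA of the upper and lower side of filter inserts was sequenced as single reads of 100 bases. Per the study's methods, reads were aligned with Subread subjunc to Rnor 6.0 and counted with featureCounts on Ensembl genes; the submitters' processing notes list STAR, featureCounts and edgeR. The deposited values are whole-number counts for 28909 symbols, which the authors did not normalize. The libraries were made with a directional kit, and the strand setting in counting is not given in the sources used here, so overlapping, antisense and near-identical genes are of uncertain origin. The authors' own fold changes and p-values were not used, only their gene biotypes.

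The 14309 genes whose count exceeded 20 in 2 or more libraries were fitted with edgeR 4.0.16 (TMM, glmQLFit, glmQLFTest) over all 8 libraries, with 1 coefficient per condition and a block for the replicate number. Weakly expressed genes could pass this filter through the libraries of 1 treatment alone, and so enter because they were raised or lowered. P-values were adjusted by Benjamini and Hochberg over all genes tested (threshold 0.05). Standard errors come from the log2 fold change and its F statistic. What the replicate numbers mark is not given in the labels. They were used as a block because the comparison was defined with the replicate number as a pairing factor. Libraries of the same number also deviated together: the difference of replicate 2 from replicate 1 correlated across genes with r = 0.54 between the somatic groups and 0.274 to 0.367 between the others. The block lowered the common dispersion from 0.0132 to 0.00459.

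The 40 gene lists, the named genes and the comparisons were chosen with earlier results of these data known. Named, except for some genes not reported here, are the 15 largest rises and falls among called genes with at least 5 CPM and no overlap, up to 5 called members of each list, genes named by the study or passing the interaction test, and genes at a defining place in a list. Alternatives were DESeq2 1.42.0, the likelihood ratio test, and other scalings, filters, thresholds and sets of libraries.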

Additional observations from a re-analysis of the deposited data

Results flagged for a closer look

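The PTX effect differed between the compartments for 15 genes by edgeR's quasi-likelihood test of the interaction, with a Benjamini-Hochberg adjusted p below 0.05 over all genes tested. In parentheses stand the difference of the effects, processes minus somata, on the log2 scale and its adjusted p. The effect was higher in processes for Sort1 (1.25, 1.24e-05), Slc17a7 (1.08, 0.000451), Slc36a1 (1.42, 0.000572), Syt13 (0.96, 0.00368), Trio (0.81, 0.00498), AABR07054639.1 (0.89, 0.00683), Atp2b2 (0.77, 0.0116), Ndufa8 (0.73, 0.0277), Rph3a (0.71, 0.0386), Gpc1 (0.64, 0.0495), Heg1 (0.69, 0.0495). It was lower in processes for Slc7a8 (-0.86, 0.0224), Dnajc6 (-0.69, 0.0225), Chst2 (-0.81, 0.0256), Slc7a14 (-1.07, 0.0495). The number of genes that passed was 20, 13, 10 and 15 without somata control replicate 1 and 2 and somata PTX replicate 1 and 2. It was 8, 46, 2 and 8 without processes control replicate 1 and 2 and processes PTX replicate 1 and 2. No gene passed without the replicate block, where 572 had an unadjusted p below 0.05. Dixon's test of a single library needs at least 4 samples in a group and was not run with 2.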

How the results depend on the processing

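With 2 libraries in each group the calls rest on the replicate block. Without it the counts were 299 raised, 214 lowered and 0 for the interaction, and with 4 somatic libraries alone they were 1925 and 1692 with the block and 340 and 259 without. The likelihood ratio test gave 541, 431 and 4 without the block, and 91 interaction calls with it. DESeq2 with the block gave 549 raised and 497 lowered genes. Library size scaling gave 563 lowered genes, no filter on low counts 89 interaction calls, and an adjusted p below 0.01 left 635, 560 and 6. Requiring an absolute log2 fold change above 1 left 192, 104 and 4. Leaving out 1 library gave 506 to 1170 raised, 343 to 1126 lowered and 2 to 46 interaction calls, and fits without a somatic library have fewer samples to test. A separate block in each compartment, added after seeing the data, gave 1371, 1335 and 87. The other counts stayed within 1.5 times. The direction of the 215 tabulated genes, where either fit called them, held under every alternative run, and 88 of them lost their call without the block.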
